A study of Mus musculus with 9 samples.

Results

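Eph receptors are receptor tyrosine kinases, and their ligands, the ephrins, are held on the surface of the neighbouring cell. Class A ephrins are attached by a lipid anchor and mostly bind EphA receptors, whereas class B ephrins span the membrane and mostly bind EphB receptors. A contact between 2 cells can signal into the cell that carries the receptor (forward) and into the cell that carries the ephrin (reverse), and such contacts are known for repulsion, boundary formation and the control of cell adhesion and migration. In the epidermis, ephrin-A1 and EphA2 are best known as a ligand and receptor pair of keratinocytes. The 10 genes described here comprised 6 ligands (Efna1, Efna3, Efna4, Efna5, Efnb1, Efnb2) and 4 receptors (Epha1, Epha2, Epha4, Ephb4), taken by name. Of these 10, 9 had at least 1 probe set, that is, a group of probes for 1 transcript, whose single gene symbol was theirs, with 20 probe sets in all among 28898, or 9 of 17097 genes. Efna3 had no such probe set and was not analysed here.

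Basal cells of the tail interfollicular epidermis from CD1 mice were measured with Affymetrix PM strip arrays for the mouse genome, in 3 groups of 3 arrays, 4 days after a punch wound of 3 mm. Leading edge (LE) cells came from a ring taken with a 4 mm punch and were sorted as positive for α5-integrin. Proliferative hub cells came from the ring around it, taken with a 6 mm punch, and were sorted as negative for α5-integrin, and control cells came from tail skin far from the wound, with no α5-integrin gate named. All cells were gated as α6-integrin positive and CD34 negative. Each sample held 300 sorted cells from tissue pooled from 5 mice, so a value is a mean over animals and single animals were not resolved. Replicates are biological by the labels and technical by the study's methods, so each p-value rests on a spread among arrays that may be technical. Region and α5-integrin gate change together between LE and hub, and their parts cannot be told apart. Values are log2 signals, on which a difference of 1 is a 2-fold change, and signals of different probe sets are not compared with each other. In such bulk samples fewer cells that express a gene and less RNA per cell cannot be told apart.

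Itga5, which codes for α5-integrin and was used for the sort, read 9.10, 9.06 and 9.17 on the LE arrays, against 6.46, 7.47 and 6.81 on the hub arrays and 6.46, 6.23 and 6.5 on the control arrays. Itga6 lay between 11.52 and 12.31 on all arrays, and Cd34 lay between 4.50 and 4.95, close to the median of 4.66 of the 23 nonspecific probe sets (range 3.66 to 8.61). The array medians were 6.47 to 6.53. The mean signal of 6 basal keratinocyte markers was 12.77 to 12.82 in the LE, 12.62 to 12.64 in the hub and 12.63 to 12.70 in control skin. That of 5 suprabasal markers was 7.98 to 8.51 in the LE, 8.84 to 8.92 in the hub and 8.63 to 8.96 in control skin. These 5 did not move together, and against control 1 was called higher in the LE and 2 lower. In LE, hub and control cells Krt1 averaged 11.29, 13.02 and 12.62, Krt10 averaged 11.26, 12.73 and 12.77, and Ivl averaged 8.53, 8.19 and 7.96. For 12 endothelial markers the means were 6.44 to 7.25, 6.40 to 6.76 and 6.15 to 6.34 in LE, hub and control cells, with LE array 1 highest, and for 12 myeloid markers they were 5.94 to 6.72, 5.96 to 6.00 and 5.91 to 5.95, with LE arrays 1 and 3 highest. For 5 melanocyte markers they were 6.02 to 7.14, 6.27 to 6.33 and 6.24 to 6.38, with LE array 3 highest. Fibroblast, T cell and Langerhans cell markers averaged 5.92 to 6.05, 6.38 to 6.57 and 6.74 to 7.34 in the LE, 5.97 to 6.03, 6.74 to 6.78 and 6.88 to 7.0 in the hub, and 6.10 to 6.15, 6.76 to 6.83 and 6.90 to 7.06 in control skin.

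The first question was which ephrins and Eph receptors distinguish the migrating LE from the hub behind it. Efnb1 and Epha2 were higher in LE than in hub cells and Efna4 and Epha4 were lower, so that 4 of 9 members were called, beside 10.6% of all genes. Against control skin, Efnb1 and Efna5 were higher in the LE and Efna4, Efnb2 and Epha4 were lower, which made 5 of 9, beside 22.8% of all genes. Members were chosen with earlier results of these data known, so an excess over these shares cannot be read from the counts. Among the 11377 genes with a group mean above 6.35, the 75th percentile of the nonspecific probe sets, 17.1% and 34% were called. By direction, 2 members were higher and 2 lower against the hub, where 5.39% of all genes were called higher and 5.23% lower, and 2 were higher and 3 lower against control, where the shares were 11.9% and 10.8%. Between hub and control, 0 of 9 members were called by limma at an adjusted p under 0.05, beside 7.28% of all genes, although 5 members (Efna1, Efna5, Efnb2, Epha2 and Epha4) had an unadjusted p under 0.05, as did 3331 of 17097 genes. All genes called there were 4.16% higher and 3.12% lower. Groups did not overlap for 4 of 9 members between LE and hub (30.0% of all genes), for 7 of 9 between LE and control (36.2%) and for 4 of 9 between hub and control (23.8%). The fold rule of the study's methods, read here as over 2-fold between arrays of equal number in all 3 pairs, was met by 0 members in each comparison, beside 1.04%, 3.01% and 0.521% of all genes. The members' median difference was −0.07 for LE against hub, −0.14 for LE against control and −0.15 for hub against control, beside −0.01, 0.02 and 0.03 over all genes. The LE, hub and control arrays each serve in 2 of these comparisons, so the comparisons are not independent of each other. Efna1, Epha1 and Ephb4 were called in none of the 3.

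**Figure D1:**
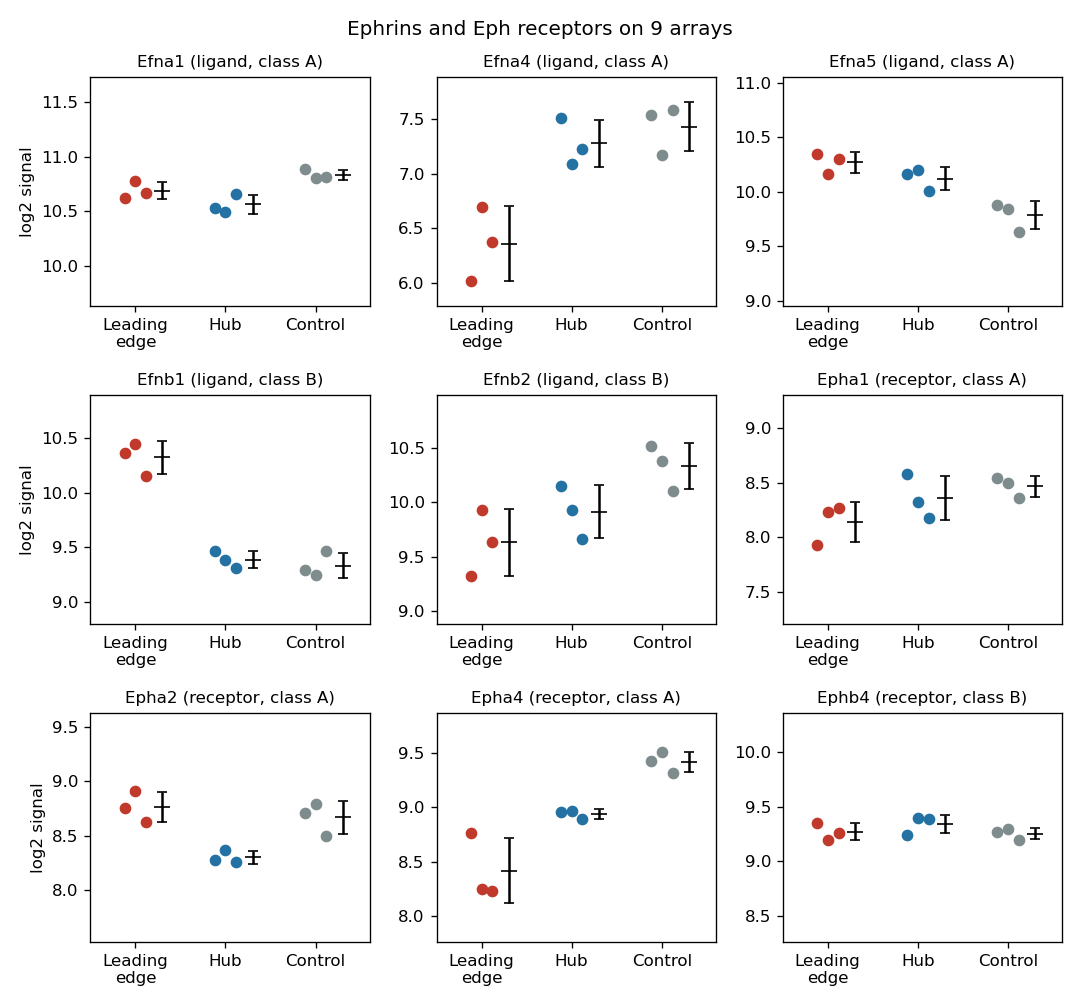
Signal (log2) of the main probe set of 9 ephrin and Eph genes on each array of the LE, the hub and control skin, with points for arrays and a bar for the group mean ± SD (n = 3). The axes differ in position and share 1 span. The 3 LE points of Efnb1 sit above all 6 others, and those of Efna4 and Epha4 sit below all 6 others.

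**Figure D2:**
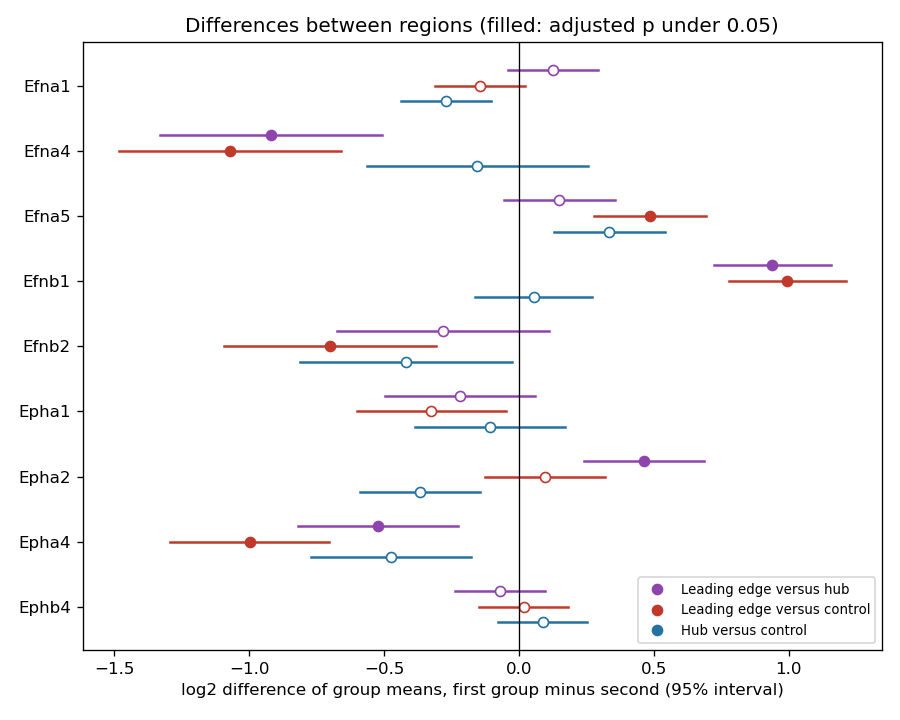
Differences of group means (log2) with 95% intervals for the 9 genes in 3 comparisons, with filled points past an adjusted p of 0.05. Efnb1 lies on the right and Efna4 and Epha4 on the left in both comparisons of the LE, and no hub against control point is filled.

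Efnb1, Efna4 and Epha4 passed the test in both comparisons of the LE, and the 250 bases before their start sites are shown for that reason, from RefSeq on GRCm38.p6, each read 5′ to 3′ on the strand of its gene and counted from the start that the promoter table uses. For Epha4 that start lies just inside the gene's annotated span, so a few bases of the stretch overlap it. Capitals mark matches to the motifs searched on both strands, which were GGGCGG (the GC box), CCAAT (the CCAAT box), TGANTCA (AP-1) and GGAATG (TEAD).
Efnb1: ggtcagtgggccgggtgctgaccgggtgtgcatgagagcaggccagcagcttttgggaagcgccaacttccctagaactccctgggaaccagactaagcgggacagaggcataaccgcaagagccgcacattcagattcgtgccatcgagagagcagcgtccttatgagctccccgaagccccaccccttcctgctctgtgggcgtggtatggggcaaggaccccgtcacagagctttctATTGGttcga
Efna4: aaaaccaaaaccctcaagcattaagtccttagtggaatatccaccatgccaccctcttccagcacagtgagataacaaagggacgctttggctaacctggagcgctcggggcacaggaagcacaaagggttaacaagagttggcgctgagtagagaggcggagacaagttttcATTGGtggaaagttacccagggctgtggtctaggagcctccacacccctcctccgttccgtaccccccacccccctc
Epha4: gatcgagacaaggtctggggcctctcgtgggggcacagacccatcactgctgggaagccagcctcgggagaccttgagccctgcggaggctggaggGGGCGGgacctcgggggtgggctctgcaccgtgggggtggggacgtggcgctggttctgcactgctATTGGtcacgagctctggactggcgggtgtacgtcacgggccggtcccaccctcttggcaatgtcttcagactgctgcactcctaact
These stretches lie at chrX:99135811-99136060 (plus strand), chr3:89338029-89338278 (minus strand) and chr1:77515089-77515338 (minus strand), and the genes span chrX:99136061-99149022, chr3:89333393-89338028 and chr1:77367182-77515107. The other members called in 1 comparison lie at chr17:62602957-62881317 (Efna5), chr8:8617235-8661242 (Efnb2) and chr4:141301221-141329384 (Epha2). Each of the 3 stretches shown above held 1 CCAAT match, written as ATTGG on the strand shown. It began 10 bases before the start of Efnb1, 77 bases before that of Efna4 and 88 bases before that of Epha4. Epha4 also held 1 GC box, 154 bases before its start. None of the 3 held a match to TGANTCA or GGAATG. Among 32851 mouse promoters of the same length, 33.85% held CCAAT, 32.74% GGGCGG, 12.64% GGAATG and 6.749% TGANTCA. CG pairs numbered 13 in Efnb1, 7 in Efna4 and 14 in Epha4, all between the quartiles of 2 and 16 over all promoters (median 6). No binding or chromatin was measured here, and a match is a stretch of letters only.

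Among the class A ligands, Efna1, the ephrin that binds EphA2 in keratinocytes, varied little. On chromosome 3 it lies within 66.3 kb of Efna3 and Efna4. Efna1 read 10.62, 10.78 and 10.67 in the LE, 10.53, 10.50 and 10.66 in the hub and 10.88, 10.80 and 10.82 in control skin. Control arrays were the highest and the LE and hub ranges overlapped. The LE differed from the hub by 0.13 (95% interval −0.04 to 0.29, adjusted p = 0.377) and from control by −0.14 (−0.31 to 0.02, adjusted p = 0.211), and the hub differed from control by −0.27 (−0.44 to −0.11, adjusted p = 0.0583). A dimmer second probe set had the opposite sign in the LE against control, with a difference of 0.17 (adjusted p = 0.287), so no direction is given for Efna1 in that comparison.

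Efna4, the other ligand of this cluster that was measured, was low in the LE. Its signals were 6.02, 6.70 and 6.37 in LE cells, against 7.51, 7.10 and 7.23 in hub cells and 7.54, 7.17 and 7.59 in control cells. Every LE array lay below every hub and control array, while hub and control overlapped. Efna4 was 1.89-fold lower in the LE than in the hub (log2 difference −0.92, SE 0.18, adjusted p = 0.0111) and 2.10-fold lower than in control skin (−1.07, SE 0.18, adjusted p = 0.00224). The hub differed from control by −0.15, with a 95% interval of −0.56 to 0.26. With 1 array left out in turn, both LE differences stayed called in 9 of 9 fits. The LE mean of 6.36 ± 0.34 (SD, n = 3) was close to 6.35, the 75th percentile of the nonspecific probe sets, so the low side of this difference is poorly measured. LE arrays 1 and 3, the lowest for Efna4, were also the 2 arrays with the highest myeloid means, and with that mean as a covariate the differences were −0.61 (adjusted p = 0.157) and −0.73 (adjusted p = 0.0631). Because the myeloid mean was itself highest in the LE, the covariate and the region cannot be told apart, and the cause was not tested.

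Efna5, best known as a guidance cue of axons, was higher in the LE than in control skin. Signals of 10.35, 10.17 and 10.30 in the LE and of 10.16, 10.20 and 10.01 in the hub stood against 9.88, 9.84 and 9.64 in control skin. LE and hub arrays overlapped and all 6 exceeded the control arrays. The LE was 1.40-fold higher than control (0.49, SE 0.09, adjusted p = 0.0041), whereas the hub was higher by 0.34 without passing the test (95% interval 0.13 to 0.54, adjusted p = 0.06), and LE and hub differed by 0.15 (−0.06 to 0.36, adjusted p = 0.409). The second probe set of Efna5 differed by 0.16 between LE and control (adjusted p = 0.291), so the call rests on the main probe set. Between LE and hub the second probe set had the opposite sign (−0.11, adjusted p = 0.622), so no direction is given for Efna5 in that comparison. The main probe set was also not called between LE and control with the endothelial mean (0.40, adjusted p = 0.0511) or the myeloid mean (0.38, adjusted p = 0.0995) as a covariate. Both means were higher in the LE than in control skin on average, so covariate and region cannot be told apart.

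Of the class B ligands, Efnb1 codes for ephrin-B1 and lies on the X chromosome. Efnb1 read 10.36, 10.45 and 10.16 in LE cells, against 9.47, 9.38 and 9.31 in hub cells and 9.29, 9.24 and 9.46 in control cells. The lowest LE array stood above the highest of the other 6, and hub and control overlapped. Efnb1 averaged 10.32 ± 0.15 in LE cells, 9.38 ± 0.08 in hub cells and 9.33 ± 0.12 in control cells (SD, n = 3 each). The LE was 1.92-fold above the hub (0.94, SE 0.10, adjusted p = 0.000348) and 1.99-fold above control (0.99, SE 0.10, adjusted p = 7.1e-05), and hub and control differed by 0.06, with a 95% interval of −0.16 to 0.27. All 3 probe sets of Efnb1 were called, with differences of 0.70 to 0.94 against the hub and 0.79 to 1.01 against control. No array left out and no other setting of the model ended these 2 calls.

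Efnb2 codes for ephrin-B2, which is also a known marker of arterial endothelium. Its signals were 9.32, 9.93 and 9.64 in the LE, 10.15, 9.93 and 9.67 in the hub and 10.51, 10.38 and 10.10 in control skin. Every LE array was below every control array, and the hub overlapped both. The LE was 1.63-fold lower than control (−0.70, SE 0.18, adjusted p = 0.0172). The difference of LE and hub was −0.28 (95% interval −0.68 to 0.11, adjusted p = 0.415) and that of hub and control −0.42 (−0.81 to −0.03, adjusted p = 0.221). The 4 probe sets of Efnb2 differed by −0.33 to −0.70 between LE and control, and 2 of the 4 were called. The call was lost without LE array 1 (−0.55, adjusted p = 0.0593), LE array 3 (−0.71, adjusted p = 0.0529) or control array 1 (−0.61, adjusted p = 0.0568). It was also lost with the endothelial mean (−0.43, adjusted p = 0.18) or the myeloid mean (−0.38, adjusted p = 0.32) as a covariate. Every endothelial mean of the LE lay above every control mean, so covariate and region cannot be told apart. The endothelial means were 7.25, 6.44 and 6.52 in the LE, 6.40, 6.76 and 6.70 in the hub and 6.34, 6.29 and 6.15 in control skin. None of the 12 endothelial markers was called by limma for LE against hub, LE against control or hub against control, beside 10.6%, 22.8% and 7.28% of all genes. In these comparisons 0, 2 and 1 of them had an unadjusted p under 0.05, as did 3880, 5713 and 3331 of 17097 genes. Their median differences were 0.11, 0.33 and 0.14, so the missing calls do not show equal levels.

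**Figure D3:**
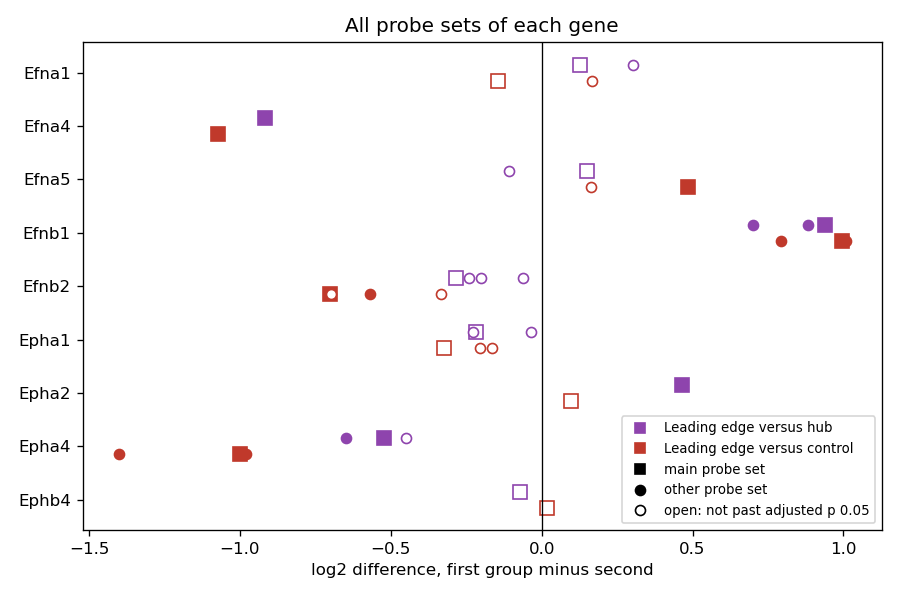
Differences (log2) of every probe set of the 9 genes, for LE against hub and LE against control, with squares for main and circles for other probe sets and filled symbols past an adjusted p of 0.05. The 3 probe sets of Efnb1 and the 3 of Epha4 keep 1 side in both comparisons, whereas those of Efna1 fall on both sides of 0 for LE against control.

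Turning to the receptors, Epha1, an EphA receptor of epithelia, read 7.93, 8.23 and 8.27 in the LE, 8.58, 8.33 and 8.18 in the hub and 8.54, 8.50 and 8.36 in control skin. LE signals lay below all control signals, and the hub overlapped both. No difference passed the test, with −0.33 for LE against control (95% interval −0.60 to −0.05, adjusted p = 0.0927), −0.22 for LE against hub (−0.49 to 0.06, adjusted p = 0.357) and −0.11 for hub against control (−0.38 to 0.17, adjusted p = 0.74). The other 2 probe sets of Epha1 were not called either.

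Epha2, the main EphA receptor studied in keratinocytes, was the only receptor of the 4 called higher in LE than in hub cells. It read 8.76, 8.91 and 8.63 in the LE, against 8.28, 8.37 and 8.26 in the hub, with 8.71, 8.79 and 8.50 in control skin. All 3 hub arrays lay below the other 6, and LE and control overlapped. The LE was 1.38-fold higher than the hub (0.46, SE 0.10, adjusted p = 0.0152) and differed from control by 0.10 (95% interval −0.13 to 0.32, adjusted p = 0.559), while the hub differed from control by −0.37 (−0.59 to −0.15, adjusted p = 0.0556). The LE against hub call was lost without LE array 2 (0.39, adjusted p = 0.0612), hub array 1 (0.45, adjusted p = 0.0549) or hub array 3 (0.44, adjusted p = 0.0569). Of the 3 class A ligands measured, Efna4 was called lower between LE and hub, and Efna1 and Efna5 were not called.

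Epha4, a receptor that binds ephrins of both classes, had its highest signals in control skin and its lowest in the LE. Its signals were 8.76, 8.26 and 8.23 in the LE, 8.96, 8.97 and 8.89 in the hub and 9.42, 9.50 and 9.32 in control skin. The 3 groups did not overlap, and LE array 1 was closer to the hub than the other 2 LE arrays. The LE was 2.00-fold lower than control (−1.0, SE 0.13, adjusted p = 0.000487) and 1.44-fold lower than the hub (−0.52, SE 0.13, adjusted p = 0.0335), and the hub was at −0.48 relative to control (95% interval −0.77 to −0.18, adjusted p = 0.0624). For LE against control, all 3 probe sets were called, with differences of −0.98 to −1.40, and the call was kept in 9 of 9 fits with 1 array left out. For LE against hub, 2 of 3 probe sets were called, and the call was lost without LE array 2 or 3 (−0.44 and −0.43, adjusted p = 0.122 and 0.12) or any 1 hub array (−0.51 to −0.55, adjusted p = 0.075 to 0.1). It was also lost with arrays centred on their medians (−0.51, adjusted p = 0.0509) and narrowly with only the 6 arrays compared (−0.52, adjusted p = 0.05003). A dim probe set of Epha4 was the single one of the 20 called between hub and control (−0.75, adjusted p = 0.0108).

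Ephb4, the receptor of ephrin-B2 that is known from veins, was close to level over the skin regions. It read 9.35, 9.20 and 9.26 in the LE, 9.25, 9.39 and 9.39 in the hub and 9.27, 9.29 and 9.20 in control skin, and all 3 groups overlapped. The intervals of its differences were −0.24 to 0.09 for LE against hub, −0.15 to 0.18 for LE against control and −0.08 to 0.25 for hub against control. Its 3 highest arrays, LE array 1 and hub arrays 2 and 3, also had the 3 highest means of the 12 endothelial markers (7.25, 6.76 and 6.70). With that mean as a covariate, its differences were −0.10 (LE against hub), −0.08 (LE against control) and 0.01 (hub against control), and none was called.

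**Figure D4:**
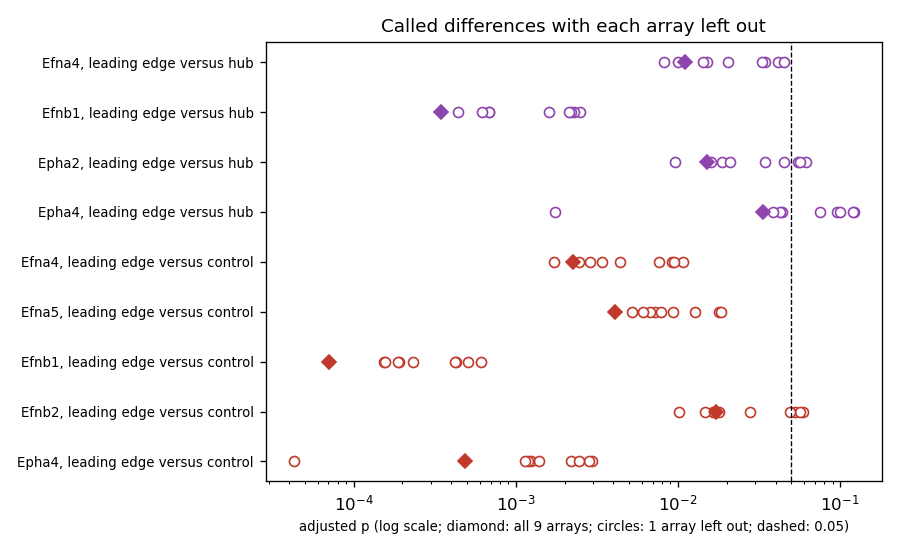
Adjusted p (log axis) of the 9 called differences of the LE, with diamonds for all 9 arrays, circles for fits with 1 array left out and a dashed line at 0.05. Circles to the right of the line belong to Epha2 and Epha4 against the hub and to Efnb2 against control.

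Of 11 further genes of the family that were listed, 11 had a probe set and of these Ephb6, a receptor that lacks kinase activity, was called. This is 1 of 11 in each comparison of the LE, beside 10.6% of all genes against the hub and 22.8% against control, and the list does not hold every other gene of the family. Ephb6 read 8.37, 8.74 and 8.31 in the LE, against 9.21, 9.52 and 9.27 in the hub and 9.84, 9.57 and 9.75 in control skin. The 3 groups did not overlap. The LE was lower than the hub (−0.86, SE 0.13, adjusted p = 0.00294) and lower than control (−1.25, SE 0.13, adjusted p = 0.000126), and the hub was at −0.39 relative to control (adjusted p = 0.126). The other 10 (Efna2, Efnb3, Epha3, Epha5, Epha6, Epha7, Epha8, Epha10, Ephb1 and Ephb3) had group means between 4.93 and 7.75 and were called in no comparison. Among these, only Efna2 and Ephb3 had group means above 6.35, the 75th percentile of the nonspecific probe sets. The rest are poorly measured, and their missing calls do not show equal levels.

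Genes that carry or limit the signal of Eph receptors were described from 3 lists by their function. Of 13 measured of 15 adaptors and kinases, 3 were higher in LE than in hub cells and 4 higher than in control skin, and none was lower, beside 5.39% and 11.9% of all genes called higher. Paxillin (Pxn), a scaffold of focal adhesions, averaged 10.15 in the LE, 9.48 in the hub and 9.81 in control skin, with differences of 0.67 and 0.34 for the LE. The kinase Src averaged 12.45, 11.94 and 11.82 and the adaptor Grb2 averaged 10.00, 9.55 and 9.49 in LE, hub and control cells. Nck2, an adaptor that joins receptors to actin regulators, averaged 8.82 in the LE and 7.99 in control skin (0.83, adjusted p = 0.00203). In the hub, Abl2 and Pxn were lower than in control skin (2 of 13, beside 3.12% of all genes called lower), by −0.58 (adjusted p = 0.00524) and −0.33 (adjusted p = 0.0311). On the other probe sets of Abl2 and Pxn, hub and control arrays overlapped, so these 2 calls rest on the main probe sets. On the other probe sets of Pxn, Src, Grb2 and Nck2, every LE array lay above every control array. On that of Grb2, LE and hub arrays overlapped. The list's medians were 0.16 for LE against hub, 0.18 for LE against control and 0.06 for hub against control.

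Of 5 genes that cut ephrins or brake the receptors, 1 was called between LE and control and between hub and control, beside 22.8% and 7.28% of all genes, and 0 between LE and hub by limma, where 0 also had an unadjusted p under 0.05. Adam10, a membrane protease that cleaves ephrins, averaged 10.25 in the LE and 10.06 in the hub, against 9.59 in control skin (0.66, adjusted p = 0.0005, and 0.47, adjusted p = 0.0119).

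Proteins that bind the tail of class B ephrins and serve reverse signals moved in both directions. Of 6 measured, 2 were higher and 2 lower in LE than in hub cells, and 2 were higher and 3 lower than in control skin, beside 10.6% and 22.8% of all genes called in either direction. Grip1, a scaffold with PDZ domains, averaged 9.72 in the LE, 9.18 in the hub and 8.72 in control skin (0.54, adjusted p = 0.0224, and 1.01, adjusted p = 0.000325). Sdcbp, the scaffold syntenin, was higher in the LE by 0.37 and 0.31. On the second probe sets of Grip1 and Sdcbp, every LE array lay above every hub and control array. Afdn, which codes for the junction protein afadin, averaged 8.88 in the LE, 9.52 in the hub and 9.85 in control skin (−0.64, adjusted p = 0.0045, and −0.97, adjusted p = 0.000157). The phosphatase Ptpn13 averaged 10.25, 10.73 and 11.10, and was lower in the LE than in the hub (−0.48), lower in the LE than in control skin (−0.85) and lower in the hub than in control skin (−0.37). On the second probe set of Ptpn13 the groups overlapped, with 8.22, 7.88 and 8.19 in the LE and 8.33, 8.50 and 8.19 in control skin. Pard6b, a polarity protein, averaged 6.29 in the LE and 5.99 in the hub, against 6.94 in control skin (−0.66, adjusted p = 0.0299, and −0.95, adjusted p = 0.0145). Its LE and hub means lay below 6.35, the 75th percentile of the nonspecific probe sets, so the low side is poorly measured. A dimmer second probe set read 5.08, 5.77 and 5.11 in the LE, 5.08, 4.78 and 4.92 in the hub and 5.21, 6.07 and 5.19 in control skin. There the LE overlapped control, and the hub lay below control.

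**Figure D5:**
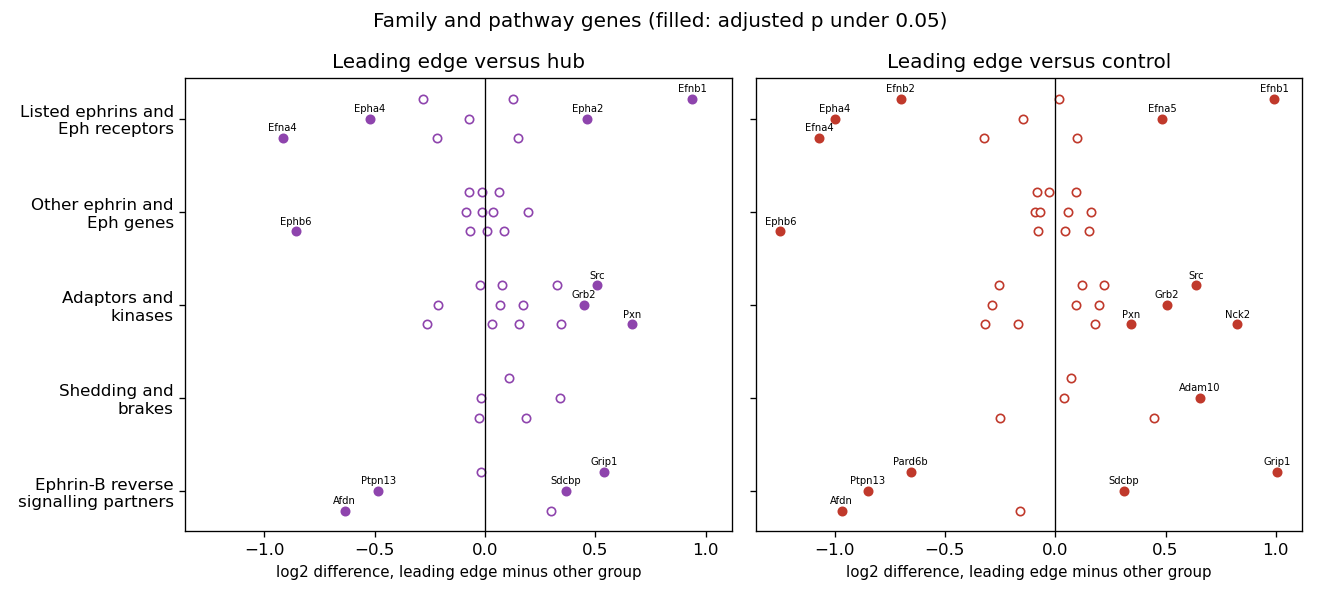
Differences (log2) of the listed ephrins and Eph receptors, 11 other genes of the family and 3 pathway lists, for LE against hub (left) and LE against control (right), with 1 point a gene and named filled points past an adjusted p of 0.05. Among the genes plotted, Efnb1 lies farthest to the right for LE against hub and Ephb6 farthest to the left for LE against control.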

How the data were processed

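RNA of sorted basal cells was amplified and hybridised to 1 array per sample, 9 in all. The deposited values are log2 signals that the authors made with RMA, which corrects background, gives all arrays 1 distribution and summarises each probe set, so that a change of total RNA cannot be measured and low signals are compressed. The sources used here do not state a version of RMA. The number of arrays limits the precision. Probe sets with 1 gene symbol in the platform annotation were used (28898 of 45141), and the probe set with the highest mean stood for its gene. A group-means model over all 9 arrays was fitted to 17097 genes with limma 3.58.1 in R 4.3.3, with Benjamini-Hochberg adjustment over all genes and a call at an adjusted p under 0.05. Values of other probe sets come from the same fit over 28898 probe sets. Intervals are 95% and not adjusted for the number of genes. The fit was tested on simulated data. Promoters and positions were taken from RefSeq, GRCm38.p6.

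Members and lists were chosen with earlier results of these data known. By rule, all members were named, other family genes if called, and up to 3 called genes a list and comparison by size of difference, together with Itga5, Itga6 and Cd34. Sdcbp and the single cell type markers were named outside this rule. A further pathway list is not reported here. Alternatives were a replicate block, a trend, array weights, quantile normalization, median centring, no dim genes, the mean of probe sets, every probe set on its own, an endothelial or myeloid mean as covariate, only the 6 arrays compared, 1 array left out and the methods' fold rule. Likeness between members is not given, since 3 groups of 3 arrays allow no pooled correlation.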

Additional observations from a re-analysis of the deposited data

How the results depend on the processing

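The 4 calls between LE and hub and the 5 between LE and control lay under a 2-fold change except Efna4 against control: with a fold of 2 required beside the adjusted p, 0 and 1 member remained called, and with over 2-fold in each same-numbered pair, 0 in every comparison. Adding the endothelial mean left 3 calls and the myeloid mean 2 for LE against control, where 15.5% and 11.9% of all genes were then called. Both means differ between the regions, so their part and that of the region cannot be told apart. With 1 array left out, 2 to 4 members were called for LE against hub, 4 to 5 for LE against control and 0 to 1 for hub against control. The shares of all genes in these fits were 7.16% to 11.5%, 17.6% to 21.6% and 4.09% to 6.74%. Between hub and control, where 0 were called, 1 was called with the replicate block (Epha2), 2 with a mean-variance trend (Efna1, Efna5), 1 with array weights (Epha4), 3 with quantile normalization repeated (Efna1, Epha2, Epha4), 2 with dim genes left out (Epha2, Epha4), 3 with the mean of all probe sets (Efna5, Epha2, Epha4), and 1, Epha4, with the endothelial covariate, the myeloid covariate or only the 6 arrays compared. In these settings 3.75% to 12.2% of the genes tested were called between hub and control. The cause of the changed calls was not tested. Deviations of same-numbered arrays from their group means correlated at −0.18 to 0.08. With 3 arrays a group, this cannot show whether arrays of 1 number came from the same mice. The replicate block kept 4 calls for LE against hub and 5 for LE against control. No called value changed sign, and 12 uncalled ones did. Of 633 results compared with the main fit, single genes and counts of called members together, 592 were classed as the same, 23 as weaker and 18 as stronger. The LE signal of Efna4 lies near that of nonspecific probe sets.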
